A study of Drosophila melanogaster with 2 samples.

Results

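Promoter peaks of the CG4360 protein whose summit lies on a CAA repeat are described here. They come from chromatin immunoprecipitation followed by sequencing of whole Drosophila melanogaster embryos collected from 0 to 24 h. The embryos carried CG4360 fused to enhanced green fluorescent protein (eGFP), and an anti-GFP antibody pulled down chromatin that had been sonicated to fragments of 200 to 800 bp. There was 1 group with 2 biological replicates, and the control experiment named in the labels was not analysed here. The labels do not name the driver of the tagged gene or the cells that made it, and a whole embryo mixes all tissues and all stages of the collection. A peak was a member when its summit lay within 500 bp of an annotated transcript start and the 101 bp around the summit held, on either strand, a pair of CAA units followed by a C. This rule kept 870 of 5692 conservative peaks on the 6 chromosome arms, or 15.3%. The conservative list holds the peaks that repeated between the replicates at an irreproducible discovery rate (IDR) of at most 0.01. Of all 2353 peaks near a start, the members made up 37.0% (exact binomial 95% interval 35.0 to 39.0). At any location, 2569 of the 5692 conservative peaks held the repeat, so it was not particular to peaks near starts. The other 1483 are called promoter peaks without the repeat, and 893 peaks in introns away from any start also held the repeat.

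CG4360 encodes a protein with zinc fingers of the C2H2 type, the fold with which many fly transcription factors read short DNA words. A transcript start is where RNA polymerase II begins, and the core promoter around it can carry short elements such as the TATA box just upstream and the initiator at the start itself. CAA triplets recur in the fly genome in leaders, introns and exons, and in coding sequence CAA and CAG both encode glutamine, so that mixed tracts of these triplets spell glutamine-rich stretches. Several of the genes named below, among them brk, sna, run, srp and grn, encode transcription factors of embryonic patterning and lineage choice.

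The sites under the strongest, the weakest and the longest-repeat members are printed to show the repeat and its surroundings at both ends of the range of signal and at its greatest length. Each line gives 30 bases of the release 6 (dm6) genome from RefSeq centred on the longest run, read 5′ to 3′ in the CAA direction with the strand of that reading, and capitals mark the unbroken run. The first 12 are the strongest members outside the chromosome arm from which no sequence is printed, in falling order of signal.
AGO2 (chr3L:15554430-15554459, plus strand, coding): cagcagcagCAACAACAACAACcgcatcag
bab2 (chr3L:1177166-1177195, minus strand, 5′ UTR): atacccaCAACAACAACAACAACgacagaa
Cbl (chr3L:8425184-8425213, plus strand, 5′ UTR): gcaacacCAACAACAACAACAACgagaaca
lncRNA:CR44713 (chr3L:11246477-11246506, plus strand, intergenic): aaagCAACAACAACAACAACAACAACggca
brk (chrX:7307773-7307802, plus strand, intron): cgaacagcagCAACAACAACagcagcgcac
Akt (chr3R:16099459-16099488, plus strand, 5′ UTR): caccttaacaCAACAACAACtacagcagca
lncRNA:CR45737 (chr3L:3394398-3394427, plus strand, other exon): tgacaaccacacCAACAACaatcacaacaa
grn (chr3R:8181739-8181768, minus strand, intergenic): tccaccaCAACAACAACAACAACcggttac
Rcd5 (chr3L:4040777-4040806, plus strand, coding): cagcagccaCAACAACAACAACcacaatag
CycA (chr3L:11833185-11833214, minus strand, 5′ UTR): cagcacaaaaCAACAACAACggcagcagca
Alh (chr3R:7123818-7123847, plus strand, intron): tccaccagcgCAACAACAACactgtgtgcg
melt (chr3L:7134445-7134474, plus strand, intergenic): aacaaacaggCAACAACAACaggcacaccg
Among these 12 sites the run was 10 bases or longer in 11, and lncRNA:CR45737 was the exception, with 7 bases but 5 separate runs in its window. A further CAG or CAA triplet stood outside the capitals in 10 of the 12, and also in 2 of the 3 weakest sites printed next.
The next 3 are the weakest members outside that arm, each with the minimal run of 7 bases.
dnc (chrX:3256079-3256108, plus strand, 5′ UTR): cagcggcagtagCAACAACgcagtaacaga
CG31638 (chr2L:6491065-6491094, plus strand, 5′ UTR): gcgactagtaaaCAACAACagctgttcgca
INPP5E (chr3L:12277903-12277932, plus strand, intron): ctagacgtaggcCAACAACacaagaacaac
The last 3 carry the longest runs. The run of nrv2 is 37 bases long and fills the printed stretch, and the other 2 runs have 25 bases.
nrv2 (chr2L:6794160-6794189, plus strand, intron): CAACAACAACAACAACAACAACAACAACAA
mRpL13 (chr2L:18858812-18858841, plus strand, intron): cagCAACAACAACAACAACAACAACAACta
CG4928 (chrX:16913433-16913462, plus strand, 5′ UTR): agaCAACAACAACAACAACAACAACAACag

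Windows of 3 members outside any annotated exon show the whole stretch that the rule searched, read on the strand of the gene. They were taken from the 25 strongest members after their values were seen, as examples of a sense repeat upstream of a start, a long one, and one that reads GTT on the gene's strand.
brk (chrX:7307729-7307829, plus strand, intron): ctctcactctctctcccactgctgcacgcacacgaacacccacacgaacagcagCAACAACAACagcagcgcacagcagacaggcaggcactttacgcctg
grn (chr3R:8181669-8181769, minus strand, intergenic): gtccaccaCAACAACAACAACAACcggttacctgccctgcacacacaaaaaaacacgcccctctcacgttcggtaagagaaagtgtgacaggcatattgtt
sna (chr2L:15478344-15478444, minus strand, intergenic): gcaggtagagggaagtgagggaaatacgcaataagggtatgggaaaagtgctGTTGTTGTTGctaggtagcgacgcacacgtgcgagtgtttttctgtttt
The summit of brk lay 160 bp upstream of its start, that of grn 275 bp and that of sna 134 bp upstream. In all 3 windows the centre of the run stood within 34 bp of the summit at the centre.

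Members had higher signal than other peaks near starts. The signal value is the authors' own value for each peak, on a scale that neither labels nor file headers give. Sets of peaks were compared only within a list. The values of the 2 replicates given below come from separate lists, and it is unknown whether these share a scale. The median was 206.5 in the 870 members (quartiles 116.0 and 409.1), 87.4 in the 1483 promoter peaks without the repeat (66.4 and 130.1) and 135.5 in the 893 intronic peaks with it (89.2 and 256.1). Above the median of all promoter peaks, at 111.2, lay 77.2% of members (95% interval 74.3 to 79.99) and 34.0% of promoter peaks without the repeat (31.6 to 36.5), an odds ratio of 6.59 (5.44 to 7.98; 2-sided Fisher exact test, p = 8.76e-95). Against intronic peaks with the repeat the difference was smaller: 60.1% of members and 40.1% of intronic peaks lay above their joint median of 169.9 (odds ratio 2.252, 1.86 to 2.73, Fisher exact p = 4.12e-17). The depth behind each peak is unknown, neighbouring peaks are not independent, and the intervals cover counting error only.

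**Figure D1:**
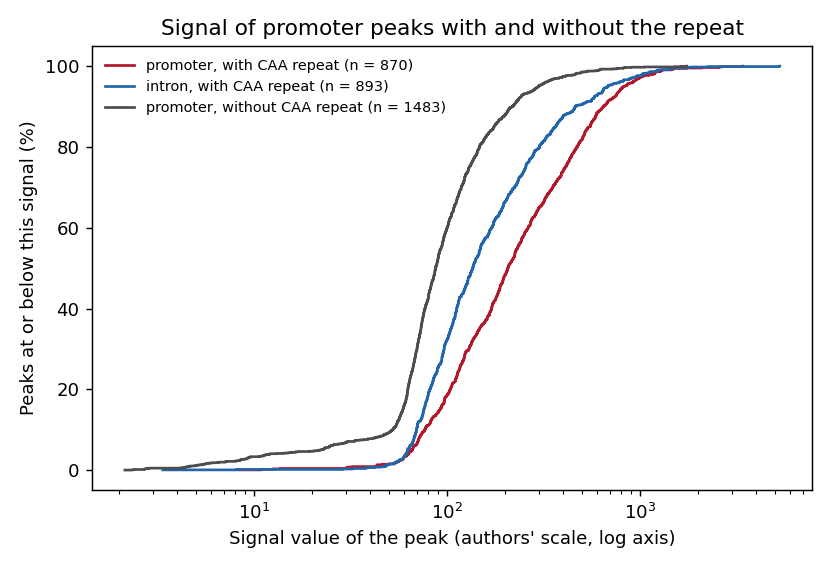
Share of peaks at or below each signal value (horizontal log axis, authors' scale; vertical axis in percent) for promoter peaks with the CAA repeat, intronic peaks with it and promoter peaks without it. The 3 curves are ordered throughout their middle range, with medians of 206.5, 135.5 and 87.4, and overlap at both ends.

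Members filled much of the top of the list. Of the 569 peaks in the highest 10% by signal, 249 were members and 45 were promoter peaks without the repeat. Of the 100 highest, 43 were members, 30 were intronic peaks with the repeat and 5 were promoter peaks without it. Counted at any location, 93 of the 100 held the repeat, so the top of the list was not particular to promoters. The range within the members was wide, from 8.32 to 3402.

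The ranked calls, from which the thresholded lists were made, were also counted. Those that passed are the 870 members and the 1483 promoter peaks without the repeat themselves. The comparison is therefore no separate support for the difference in signal. Of all 22106 ranked calls near a start, 10.6% were in the conservative list. The share was 54.3% (51.8 to 56.8) of the 1602 calls with the repeat within 50 bp of the summit and 7.23% (6.88 to 7.60) of the 20504 calls without it, an odds ratio of 15.2 (13.6 to 17.04; Fisher exact test). The thresholded lists were derived from a further file besides the ranked lists, and 32 calls with the repeat near a start passed the IDR threshold but were not listed.

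Both replicates showed the members, with higher values in replicate 1. For 711 members a call could be matched in each replicate's own ranked list, with medians of 105.6 in replicate 1 and 77.8 in replicate 2. Replicate 1 was higher in 595 of them (83.7%), and the median ratio over the 711 was 1.32 (quartiles 1.11 and 1.59). Scale and depth of the 2 replicate lists are unknown, so the ratio does not show stronger binding in replicate 1. For promoter peaks without the repeat the median ratio was 1.08 over 1250 pairs. As a description over peaks that share 2 libraries and were selected for similar ranks, the Spearman correlation between replicates was 0.928 for members and 0.615 for promoter peaks without the repeat. The latter had replicate medians of 47.5 and 42.5, nearer to their lowest values of 25.9 and 26.5, and a narrower range of signal. The part of this in the difference between the correlations was not tested. Thresholded peaks of both replicates overlapped 60.5% of members (57.1 to 63.7) at a reciprocal overlap of at least 0.5, against 32.9% of promoter peaks without the repeat (30.5 to 35.4; odds ratio 3.12, 2.62 to 3.71, Fisher exact p = 7.84e-39). At a reciprocal overlap of 0.8 these shares were 25.5% and 22.4% (odds ratio 1.19, Fisher exact p = 0.0872), and among peaks at an IDR of at most 0.001 they were 72.4% and 68.3% (odds ratio 1.22, p = 0.116). With any overlap of at least 1 bp they were 78.4% and 43.1% (odds ratio 4.79, Fisher exact p = 5.61e-65). A further 198 members matched replicate 1 alone, 58 replicate 2 alone and 88 neither, at the reciprocal overlap of 0.5. For 22 members a matching call was also the match of another conservative peak. Without peaks of this kind the median ratio of the replicates was 1.32 over 693 members and 1.07 over 1175 promoter peaks without the repeat.

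**Figure D2:**
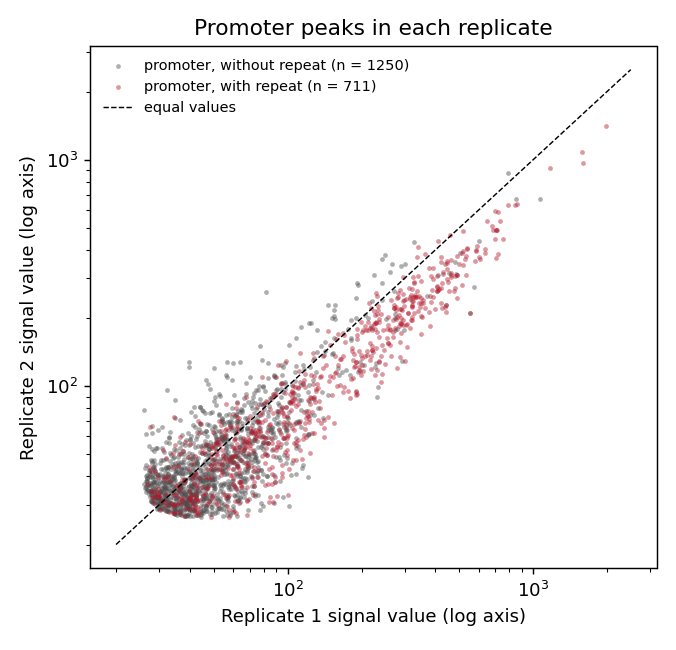
Signal of each promoter peak in replicate 1 (horizontal log axis) and replicate 2 (vertical log axis), for 711 members and 1250 promoter peaks without the repeat that had a call in both ranked lists; the dashed line marks equal values. Members reach 1978 in replicate 1 and 1405 in replicate 2, and 83.7% of them lie below the line.

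The strongest member stood at AGO2, the Argonaute that carries small interfering RNAs, with a signal of 1978 in replicate 1, 1405 in replicate 2 and 3402 in the conservative list (3L, 15554059 to 15554705). Its summit lay 316 bp downstream of the start in coding sequence, and its window held 5 separate runs, the highest number in any member window. The second was bab2, a BTB-domain transcription factor of limb and ovary patterning, with 1580 and 1082 in the replicates and a summit 65 bp into the transcript. The third was ced-6, an adaptor for the engulfment of dying cells, with 1604 and 964. At Cbl, the ubiquitin ligase that downregulates the EGF receptor, the values were 1168 and 919. In all 4 the value in replicate 1 was the higher, and all 4 summits lay downstream of the start.

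The 25 strongest members are grouped here by known function, after their values were seen, and 7 at genes of transcription control other than bab2 come first. The share of such genes among all members was not counted. At brk, the repressor of Dpp target genes, replicate 1 gave 858 and replicate 2 gave 638. The GATA factor gene grn had 719 and 586, and srp, the GATA factor of blood and fat body, had 685 and 488. At psq, a BTB protein, the values were 709 and 489. The pair-rule Runx gene run had 682 and 511, and sna, the repressor of the mesoderm, had 718 and 385. Alh, a homologue of human AF10, had 751 and 446. In each of these 7 genes replicate 1 was the higher, and the summit lay upstream of the nearest start in all but srp, where it was 306 bp downstream.

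The remaining members of the 25 follow. Akt, the kinase of the insulin pathway, had 845 and 630 with its summit 257 bp downstream of the start in the 5′ UTR. The axon guidance receptor gene robo1 had 793 and 630. CycA, the mitotic cyclin, had 709 and 489, and spi, the main ligand of the EGF receptor, had 601 and 374. Atg17, a scaffold of autophagy, had 648 and 535, and melt, which encodes a PH-domain protein of growth control, had 716 and 492. The others were Rcd5, drongo, homer, jar, Pp2B-14D and CG2162, with values from 518 to 735 in replicate 1 and from 370 to 537 in replicate 2, and 2 long noncoding RNA genes. Of these, lncRNA:CR45737 had 698 and 595, and lncRNA:CR44713 had 1019 in replicate 1 but no matching call in replicate 2 at the overlap used.

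The weakest members had little support of their own in the replicates. At slbo, the C/EBP factor of border cells, the conservative value was 8.32 and neither replicate had a matching call. At prel, INPP5E and CG31638, with 11.0, 12.5 and 13.6, each matching replicate call was also the match of another conservative peak nearby, so no replicate value is given for them. The fifth was dnc, the cAMP phosphodiesterase gene, with 29.7 and a call of 31.6 in replicate 1 alone. All 5 had runs of 7 bases only.

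Longer repeats were more often under a summit. Within 500 bp of starts the genome held 6271 runs, and 18.1% (17.2 to 19.1) had a conservative summit within 50 bp. The share was 12.1% (11.2 to 12.99) of 5184 runs of 7 bases, 43.2% (39.8 to 46.7) of 812 runs of 10, 57.1% (49.4 to 64.5) of 177 runs of 13 and 60.2% (49.8 to 70.0) of 98 runs of 16 or more. Runs of 10 or more had a summit in 47.0% of cases, an odds ratio of 6.46 against runs of 7 (5.58 to 7.47; Fisher exact p = 1.59e-135), a comparison chosen after the shares were seen. The intervals of runs of 13 and of 16 or more overlap, so no rise between them was shown.

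Signal rose along the same scale. The median signal of members was 162 where the longest run had 7 bases (422 members), 263 at 10 bases (293), 336 at 13 (96) and 390 at 16 or more (59). Members with a longer run or with more than 1 run were above the members' median in 62.8% of 503 cases, against 32.4% of the 367 members with 1 minimal run (odds ratio 3.52, 2.65 to 4.68, Fisher exact p = 7.95e-19). The medians of these groups were 283 and 146. By number of runs, the median was 188 with 1 run (663 members), 294 with 2 (168) and 557 with 3 (32), and 245 in the 7 members with 4 or more. Of the 87 members with the lowest signal 36.8% had longer or more runs, and of the 87 with the highest 89.7% had. The 5 longest runs did not bring the 5 highest values: nrv2, an Na,K-ATPase subunit gene with a run of 37 bases, had 723, mRpL13 and CG4928 with 25 bases had 271 and 244, lncRNA:CR43285 with 25 had 94.1, and lncRNA:CR44713 with 22 had 1745.

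**Figure D3:**
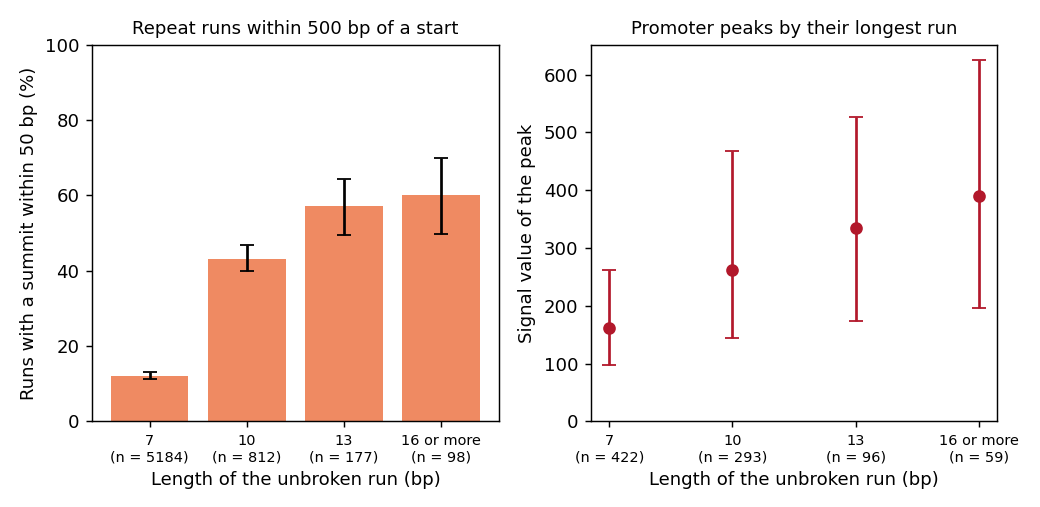
Left, percent of all repeat runs within 500 bp of a start that had a conservative summit within 50 bp, by length of the unbroken run in bp, with exact binomial 95% intervals. Right, median signal value (points) and quartiles (bars) of members by their longest run. The share goes from 12.1% at 7 bp to 60.2% at 16 bp or more, and the median signal from 162 to 390.

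The bases beside the run also differed. Runs of 7 bases with a summit (615 in member windows) were compared with 4555 other such runs near starts at 9 positions on each side, in 72 comparisons adjusted together, chosen after the values were seen. The first base after the run was A in 78.9% of member runs and 47.4% of the others (odds ratio 4.13, Fisher exact test, adjusted p = 3.47e-49), and the second was A in 54.1% and 38.5% (adjusted p = 1.77e-12). Just before the run T was found in 1.63% and 15.8% (adjusted p = 2.31e-28), and A in 48.9% and 32.6% (Fisher exact tests, adjusted p = 7.36e-14). An A after the run, or before it, is the base that would continue the repeat by a part of a unit.

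Where the run lay in a gene also went with its share. Among runs of 7 bases, 18.2% (16.3 to 20.3) of 1471 in 5′ UTRs had a summit, 13.9% of 1084 in introns, 11.4% of 985 between genes, 5.34% (3.98 to 7.003) of 917 in coding sequence and 1.74% of 172 in 3′ UTRs. The odds ratio of 5′ UTR against coding runs was 3.95 (2.87 to 5.42; Fisher exact p = 2.4e-21), again chosen after the values were seen. At 10 bases or more the shares were 51.6% (46.6 to 56.6) in 5′ UTRs and 40.2% (33.5 to 47.2) in coding sequence, whose intervals overlap slightly.

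The run sat close to the summit, although the rule allowed 50 bp. The distance was taken to the centre of the longest run, and to the nearest one where runs tied in length. Its median was 15 bp (quartiles 7 and 28), and in 70.7% of members it was within 25 bp. Around all 2353 promoter summits there were 14.7 runs per 100 peaks in the central 20 bp, 1.91 at 70 to 110 bp upstream and between 0.935 and 1.36 beyond 110 bp upstream. Just inside the limit of 50 bp lay l(2)k01209, lncRNA:CR45267 and Pex23, each with its run at 50 bp and with signals of 321, 269 and 238. Just outside, at 51 bp, lay CG8188, Pak and CycB3, with 190, 185 and 66.5.

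**Figure D4:**
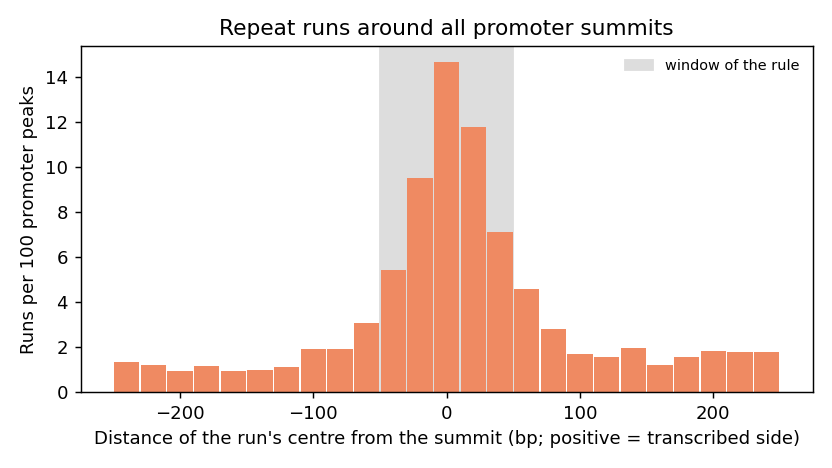
Repeat runs per 100 promoter peaks in bins of 20 bp by distance of the run's centre from the summit, in bp with positive values on the transcribed side; grey marks the 50 bp on each side that the rule searched. The count is 14.7 in the central bin and falls to between 0.935 and 1.95 at 110 bp or more on either side.

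Members lay downstream of the start more often than other promoter peaks. Their summits were on the transcribed side in 60.9% of cases (57.6 to 64.2), against 43.0% (40.5 to 45.6) without the repeat (odds ratio 2.06, 1.74 to 2.45, Fisher exact p = 6.05e-17). Between 200 and 300 bp downstream lay 14.3% of members and 4.86% of the others, and within 100 bp of the start 32.9% and 43.4%. The repeat itself leans the same way: 60.8% of the 5131 runs near starts without a summit were downstream, and 63.8% of the 1126 runs in member windows, a comparison chosen after the values were seen, which did not pass the test (odds ratio 1.13, 0.991 to 1.30, Fisher exact p = 0.0681). That ratio was 0.906 within 250 bp of a start (Fisher exact p = 0.262) and 1.42 with gene 5′ ends as the only starts (p = 1.95e-05). Median signal was 222 for members upstream and 202 for members downstream. Starts of alternative transcripts count here, and 647 members (74.4%) lay within 500 bp of a gene 5′ end. A summit upstream of its nearest start can therefore lie inside an annotated transcript. Upstream lay 339 members, while only 144 members were between genes. The last members inside the limit of 500 bp were CHES-1-like, Jarid2 and lncRNA:CR45352, at 500, 499 and 497 bp with signals of 130, 90.3 and 556, and the first beyond it were Traf4, nuf and lncRNA:CR42794, at 502, 505 and 505 bp with 100.1, 838 and 497.

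**Figure D5:**
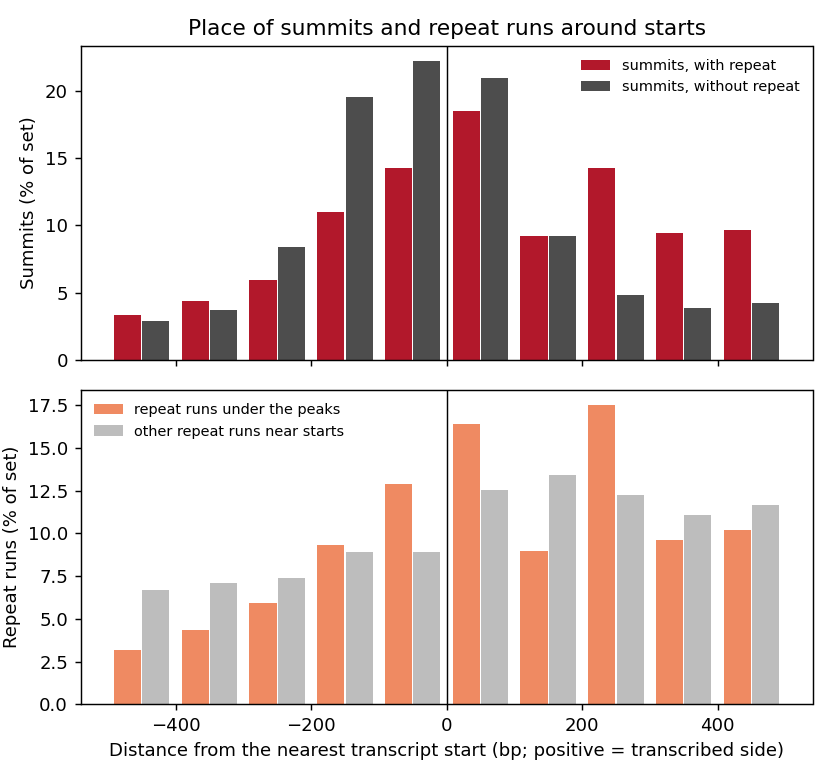
Percent of summits (top) and of repeat runs (bottom) in bins of 100 bp by distance from the nearest transcript start, in bp with positive values on the transcribed side. Members exceed promoter peaks without the repeat from 200 bp downstream on, at 14.3% against 4.86% in the bin from 200 to 300 bp, while runs near starts without a summit are also more frequent downstream.

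By annotation at the summit, 366 members (42.1%) lay in a 5′ UTR, 220 in an intron, 144 between genes, 78 in coding sequence, 53 in other exons and 9 in a 3′ UTR. Their median signals ranged from 123 in 3′ UTRs to 228 in other exons. Starts on both strands lay near 14.8% of members and 25.9% of promoter peaks without the repeat.

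The strand of the repeat was not shown to differ between member runs and other runs near starts. In member windows 59.5% of runs (56.6 to 62.4) read as CAA on the strand of the nearest transcript, against 61.8% (60.4 to 63.1) of the other runs near starts (odds ratio 0.909, 0.797 to 1.04, Fisher exact p = 0.156). Upstream of the start the shares were 50.7% and 54.2%, and downstream 64.3% and 66.7%. In coding sequence downstream they were 90.2% of 112 and 81.6% of 847 runs, which did not pass adjustment over the 7 comparisons of strand (Fisher exact test, adjusted p = 0.167). By strand, the median signal was 204 for the 495 members whose runs were all sense and 207 for the 352 whose runs were all antisense.

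Other words differed in share between promoter peaks with and without the repeat. Of 14 motifs counted on both strands in the 101 bp windows, 9 differed in share between members and promoter peaks without the repeat (Fisher exact tests, Benjamini-Hochberg adjustment at 0.05), 5 higher in members and 4 lower. CAGCAAC and CAACAGC share bases with the repeat, so the rule itself fixes part of their share, and they are given with the run masked in the member windows, a setting added after the data were seen. CAGCAAC was then in 10.7% of members and 3.71% of the others (odds ratio 3.11, Fisher exact test, adjusted p = 2.45e-10), CAACAGC in 7.47% and 3.03% (odds ratio 2.58, adjusted p = 4.2e-06), and CAGCAGC in 15.3% and 4.05% (odds ratio 4.28, adjusted p = 1.05e-19). Unmasked, the members' shares were 32.0%, 26.7% and 20.3%, and 101 bp windows at all 23584 annotated starts held the words in 2.65%, 2.70% and 3.37%. Masked or not, 5 of the 14 motifs were higher and 4 lower in members. The CA repeat CACACAC was in 12.8% and 5.53% (3.22% of all starts, Fisher exact test, adjusted p = 5.58e-09). The E-box CAGCTG was in 8.97% and 5.06% (7.83% of all starts, Fisher exact test, adjusted p = 0.000527). With the run masked, CACACAC was in 12.6% of members and CAGCTG in 8.05%. For CAGCTG the members' share was close to that of all starts, and the share of promoter peaks without the repeat was below it. Windows at all starts are centred on the start itself, and peak windows on summits up to 500 bp away. Each comparison with all starts therefore also differs in place.

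The 4 words with a lower share in members than in promoter peaks without the repeat included 2 of the core promoter. The TATA box word TATAAA was in 4.02% of members and 14.1% of the others (odds ratio 0.256, 0.177 to 0.369, Fisher exact test, adjusted p = 7.97e-16; 15.0% of all starts). The initiator core TCAGT was in 11.95% and 17.7% (30.1% of all starts, Fisher exact test, adjusted p = 0.000381), and in 11.3% of members with the run masked. The GATA word AGATAAG was in 0.575% and 1.75% (0.886% of all starts, Fisher exact test, adjusted p = 0.0227). The A tract AAAAAAA was in 7.47% and 11.4% (8.09% of all starts, Fisher exact test, adjusted p = 0.00369). For AGATAAG, held by 5 members, and for AAAAAAA, the members' share was nearer to that of all starts than the others' share was. The windows at all starts differ in place from the peak windows, as given above. Fewer of the members' summits lay within 100 bp of a start, as given above, and the windows had a median GC content of 47.5% in members and 42.6% in the others; the part of either in these differences was not tested. GAGAGAG, the DRE word TATCGATA, the motif 1 core GGTCACAC, the E-box CACGTG and the Zelda word CAGGTAG did not pass, with odds ratios from 0.810 to 2.40. The repeat itself was in 3.14% of the windows at all starts.

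Across the genome, 847 of 13945 protein-coding genes had a member within 500 bp of a start, a background of 6.07%. Genes with a member had a median of 2 distinct starts and all protein-coding genes a median of 1. A gene with more starts covers more sequence under the rule. Of the 3904 coding genes with a run near a start, 21.5% had a member. By nearest start the members named 808 genes, of which 754 had 1 member, 47 had 2 and 7 had 3 or more. The gene with most was psq, with 4 members of 116 to 1265 in signal. Most nearest genes were protein-coding (771 members), 93 were noncoding RNA genes, 4 were tRNA genes and 2 were snoRNA genes.

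Genes were also counted in 14 lists by function, which were not tested. Symbols that did not match the annotation, among them Dl of the Notch list and Tor, were left out of the lists. In the list of segmentation and lineage transcription factors 16 of 57 genes had a member (28.1%, 16.97 to 41.5), and 27 had a run near a start. After run, srp and sna the highest was grh, the epidermal factor Grainyhead, with 411 in replicate 1 and 436 in replicate 2, where replicate 2 was the higher. Of 13 BTB transcription factor genes 4 had one (30.8%): bab2, psq, ttk, with 280 and 244, and lola, with 106 and 64.0. Of 31 genes of Polycomb, trithorax and remodelling 7 had one (22.6%), led by kis, a chromodomain remodeller, with 350 and 170, ph-p, a Polycomb subunit, with 272 and 221, tou and ph-d. Of 13 genes of the ecdysone response 3 had one, with signals of 232 at Eip75B, 103 at EcR, the hormone receptor, and 100.3 at Eip78C.

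Among signalling lists, the EGF receptor pathway had 8 of 21 genes with a member (38.1%, 18.1 to 61.6), among them the ligand spi, the receptor Egfr (211 in replicate 1 and 143 in replicate 2), the ligase Cbl and the ETS factor pnt (404 and 273). In insulin and TOR growth control 5 of 19 had one (26.3%): Akt, the TOR inhibitor scyl (357 and 233), the receptor InR (309 and 211), the TORC2 subunit rictor (296 and 196) and chrb. The Notch pathway had 3 of 21, namely E(spl)m8-HLH (375 and 212), Su(H) and E(spl)m5-HLH (58.1 and 40.5), and the Hippo pathway 2 of 13, the TEAD factor sd (447 and 359) and ex (463 and 310). In each of these pairs replicate 1 was the higher.

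Among genes of general cell function, 2 of 92 cytosolic ribosomal protein genes had a member (2.17%, 0.264 to 7.63), RpS3 with 135 and 79.8 and RpL34b with 67.6 and 89.8, although 51 of the 92 had a promoter peak of some kind and 22 had a run near a start. Of 13 genes of the Argonaute and Dicer pathways AGO2 alone had one. Of 19 cell cycle genes 2 had one, CycA and CycE (581 and 357). Translation initiation factors had 6 of 44 (13.6%), led by eIF3j (423 and 373), Rab GTPases 6 of 36 (16.7%), led by RabX1 (291 and 220), and actin cytoskeleton and adhesion genes 5 of 29 (17.2%), led by Moe, the link between actin and membrane (476 and 264). The exact binomial interval contains the background of 6.07% in 8 of the 14 lists. These are ribosomal proteins, Argonaute and Dicer, cell cycle, translation, actin, Notch, Hippo and ecdysone. The interval of the Rab list starts at 6.37%. The intervals are not adjusted over the lists, and a difference of any list from the background was not tested. Lists also differ in genes with a run near a start. These were 11 of 13 BTB genes and 22 of 92 ribosomal protein genes, beside 28.0% of all protein-coding genes.

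By chromosome arm, the share of promoter peaks with the repeat was 45.8% on X (41.0 to 50.7), 38.6% on 3L, 35.6% on 2R, 33.7% on 3R and 31.9% on 2L (27.5 to 36.6), and 1 of 5 on chromosome 4. The intervals of X and 2L do not overlap, but the difference was not tested. Median signal of members was similar across the 5 large arms, from 198 on 2R to 244 on 2L.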

How the data were processed

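The authors deposited lists of peaks on dm6 for each of 2 replicates and, made from both, a conservative and a pooled list, each as ranked calls and as the calls past a threshold, per the file headers. Neither labels nor headers name the aligner or the peak caller. The signal value of each peak is the authors' own, on a scale that is not given, and the deposited ranked lists also hold −log10 of the global IDR, at least 2 in every thresholded peak. The number of reads is unknown. In the ranked lists made from both replicates, 8 columns of replicate values were not used, because nothing says which replicate they belong to. Replicate values came from each replicate's own ranked list, matched at a reciprocal overlap of at least 0.5.

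Starts and regions came from the Ensembl release 115 annotation, leaving out transposable elements, and sequences from RefSeq release 6. A run is an unbroken CAA stretch of 7 bases or more, and runs that share no base were counted apart. Peaks were counted as deposited, 3 members lay within 200 bp of a stronger one, and each peak was named by its nearest start. Shares were compared by 2-sided Fisher exact tests, with 95% intervals of odds ratios on the log scale (0.5 added to each cell where one was 0) and exact binomial intervals of shares. Only 2 replicates entered each list, so the tests run over peaks and measure no spread between embryos. The members, lists, motifs and tests were chosen with earlier results of these data known. Genes named are the 25 strongest, 5 weakest and 5 longest-run members, up to 4 per list, and 3 on each side of each limit. The gene chrb was named after its values were seen, to complete a count of 5. List symbols that did not match the annotation were left out. They were h of the segmentation list, phl of the EGF receptor list, Dl and nct of the Notch list and d of the Hippo list. Tor of the insulin and TOR list and calypso of the Polycomb list were left out too. Run finding and tests were tested on simulated data. Python 3.11.15, numpy 2.4.6, scipy 1.17.1, statsmodels 0.14.6 and matplotlib 3.10.9 were used.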

Additional observations from a re-analysis of the deposited data

How the results depend on the processing

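Results were recomputed with the distance to a start at 250 or 1000 bp, with gene 5′ ends or protein-coding starts only, with windows of 25 or 100 bp on each side, on the pooled list, at an IDR of at most 0.001, with summits within 200 bp reduced to the strongest, from the lists of 1 replicate alone (except for the share in both replicate lists), and, added after the data were seen, with starts of transposable elements counted, with the run masked for motifs and, for the share in both replicate lists, without peaks that share a replicate peak. The cut of the signal comparisons was also set at the upper quartile. Starts on 1 strand only were also used for the downstream share of summits and the strand of runs. A reciprocal overlap of 0.8 and any overlap of at least 1 bp were also used for the share in both replicate lists. Of 175 recomputed values, 165 kept their direction and their side of the threshold or stayed within 1.5 times the count. The odds ratio of signal against promoter peaks without the repeat ranged from 4.38 to 8.10, that against intronic peaks from 1.68 to 2.34, that of the downstream share from 1.67 to 2.70, that of passing the threshold from 11.5 to 25.2, that of longer or more runs from 2.92 to 4.10 and that of run length from 5.99 to 7.15. The strand comparison stayed short of the threshold (0.865 to 0.976), and 6 to 9 of 14 motifs passed.

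Calls that changed were of 2 comparisons. The odds ratio of the share in both replicate lists, 3.12, was 1.22 (p = 0.116, Fisher exact test) at an IDR of at most 0.001 and 1.19 (p = 0.0872) at a reciprocal overlap of 0.8, 4.79 at an overlap of 1 bp and 3.13 without peaks that share a replicate peak, and the cause was not tested. The odds ratio of runs downstream of the start, 1.13, was 0.906 at 250 bp, 1.21 at 1000 bp, 1.42 with gene 5′ ends only, 1.23 with protein-coding starts, 1.14 with windows of 100 bp and 1.20 with transposable elements counted, of which all but the first passed the threshold; the cause was not tested. Leaving out a replicate changed no call: without replicate 1 and without replicate 2 the odds ratio of signal was 4.38 and 7.48, and 677 and 830 peaks were members. At 250 bp the members numbered 562, by the construction of the rule, and 15 of the 25 strongest were among them; without replicate 1, 24 of the 25 were members again. No paired analysis was possible because there was 1 group only. Signal values have no known depth, which limits what a difference between single peaks can show.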
